A study of Mus musculus with 8 samples.

Results

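Antisense loci overlapping known exons are stretches of the genome whose transcripts were assembled on the strand opposite an annotated gene and overlap that gene's exons. They were taken here as loci of the deposited annotation with at least 1 transcript of class code x, the assembler's code for an overlap with a reference exon on the opposite strand, and no transcript that matches or extends a reference gene on its own strand. The rule found 665 antisense loci among 35299 loci in all, beside 26099 annotated and 8534 intergenic loci. In 508 of the 665 all transcripts carried this code, and 157 also held intergenic transcripts. Each locus was set against its partner, the annotated locus on the opposite strand with which it shares the most exon bases.

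The study measured long RNA in the hearts of C57BL/6J mice aged 12 weeks, 4 given a sham operation and 4 a myocardial infarction (MI), in which a blocked coronary artery kills part of the heart wall. Tissue came from the border zone, the muscle beside the infarct, or from the matching region of sham hearts, 2 weeks after surgery. Poly(A)-selected libraries were sequenced in paired reads, and the series was set up to compare the 2 conditions with 4 biological replicates each. The Sham titles carry a remark of reanalysis that the MI titles lack, so the origin of the libraries and infarction cannot be told apart. Group membership follows the titles and the treatment field, while the source field of every MI sample names Sham and the descriptions of several samples name the other condition.

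Natural antisense transcripts are RNAs made from the strand opposite a gene. Many start near the promoter of the gene and run away from it (head-to-head, or divergent, pairs), others meet it at its 3′ end (tail-to-tail, or convergent, pairs), and others lie within it. Some are known to act on the gene opposite, by the act of transcription, by chromatin change or by pairing with its RNA, and many have no known function. In the heart, Hand2os1, a non-coding RNA that runs away from the promoter region of the transcription factor gene Hand2, is a studied case.

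The libraries held 108 to 190.2 M reads assigned to loci, with the MI libraries deeper than the Sham libraries. A value is the deposited signal, called normalised reads here, in which 1 read was worth 0.663 to 1.58 according to the library. A count of 0 allows up to 3 reads, or 1.99 to 4.73 normalised reads, and such floors cover counting error only. The first principal component separated the conditions, with MI replicate 2 at 34.8 and the other MI libraries at 62.4 to 63.2. Of marker genes for the tissue, the 8 cardiomyocyte markers found were all present (0 of them at 0), and 5 fell in MI. Fibroblast markers rose in 7 of 7, macrophage markers in 3 of 3 and T and B cell markers in 5 of 5, while none of 4 endothelial markers passed the test. The sum of the atrial muscle markers Myl7, Myl4 and Sln was 187 to 585 in Sham, 274 in MI replicate 1 and up to 12698 in the other MI libraries. In bulk tissue, fewer cells of a type and less RNA per cell cannot be told apart.

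Sequence was available for the antisense loci that match a gene of a later reference by the lengths of their exons and introns, which was so for 84 of the 665 (73 non-coding and 11 protein-coding genes). The splice junctions below are shown because they tell the antisense RNA from its partner: a junction is read in 1 direction only. They are from GENCODE M21 on GRCm38, 5′ to 3′, with the last 20 bases of exon 1 in lower case and the first 20 bases of exon 2 in capitals.
Hand2os1 (opposite Hand2): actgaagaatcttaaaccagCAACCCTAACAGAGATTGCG
Gm12963 (opposite Col16a1): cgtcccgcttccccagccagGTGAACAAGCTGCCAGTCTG
Gm33858 (opposite Cx3cr1): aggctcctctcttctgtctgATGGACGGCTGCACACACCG
Gm3510 (opposite Cacna2d1): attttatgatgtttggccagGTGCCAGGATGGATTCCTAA
Plet1os (within the span of an opposite locus): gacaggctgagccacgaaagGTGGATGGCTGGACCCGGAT
The transcript of Gm12963 starts 66 bases upstream of the RefSeq start of Col16a1, that of Gm33858 700 bases upstream of Cx3cr1 and that of Gm3510 1285 bases upstream of Cacna2d1. The Hand2os1 transcript starts 245 bases downstream of the start of Hand2, so in that reference both genes overlap at their starts. The 20 bases of exon 1 of Gm12963 lie, read on the other strand, in the 250 bases before the start of Col16a1, from position 73 of the sequence printed next.

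For head-to-head pairs the region before the partner's start lies between both starts, within the antisense transcript, or partly in each. It is shown for 5 partners whose antisense loci are described below. The windows are the 250 bases upstream of the RefSeq start on GRCm38.p6, 5′ to 3′ on the partner's strand. Capitals mark CCAAT boxes (CCAAT) and GC boxes (GGGCGG), searched on both strands together with the TATA box (TATAAA), and no 2 matches overlap in the windows printed.
Hand2 (chr8:57320733-57320982, + strand): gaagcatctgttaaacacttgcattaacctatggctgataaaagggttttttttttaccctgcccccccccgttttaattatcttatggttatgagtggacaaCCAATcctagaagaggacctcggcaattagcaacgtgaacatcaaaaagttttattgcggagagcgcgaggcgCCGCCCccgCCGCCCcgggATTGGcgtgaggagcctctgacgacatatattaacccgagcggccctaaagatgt
Col16a1 (chr4:130047590-130047839, + strand): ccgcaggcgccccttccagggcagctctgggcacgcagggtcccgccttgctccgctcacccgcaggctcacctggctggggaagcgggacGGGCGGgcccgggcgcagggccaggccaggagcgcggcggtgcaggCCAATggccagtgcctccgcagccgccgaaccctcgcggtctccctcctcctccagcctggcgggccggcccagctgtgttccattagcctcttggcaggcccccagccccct
Col15a1 (chr4:47207762-47208011, + strand): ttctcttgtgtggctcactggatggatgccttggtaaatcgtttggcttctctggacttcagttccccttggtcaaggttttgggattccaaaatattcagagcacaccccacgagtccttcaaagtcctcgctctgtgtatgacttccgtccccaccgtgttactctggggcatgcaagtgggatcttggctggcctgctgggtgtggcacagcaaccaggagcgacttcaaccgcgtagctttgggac
Cx3cr1 (chr9:120068297-120068546, - strand): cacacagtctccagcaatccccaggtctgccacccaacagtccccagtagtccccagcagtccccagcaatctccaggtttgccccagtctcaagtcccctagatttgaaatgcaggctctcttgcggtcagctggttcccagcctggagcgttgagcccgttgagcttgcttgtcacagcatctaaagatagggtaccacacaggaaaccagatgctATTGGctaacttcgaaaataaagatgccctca
Bach1 (chr16:87698704-87698953, + strand): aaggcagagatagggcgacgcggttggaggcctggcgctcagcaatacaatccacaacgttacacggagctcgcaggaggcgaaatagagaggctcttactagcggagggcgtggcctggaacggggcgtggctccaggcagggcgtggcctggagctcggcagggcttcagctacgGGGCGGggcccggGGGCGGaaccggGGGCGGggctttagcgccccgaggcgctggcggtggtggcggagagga
The windows differ: Hand2 holds 2 CCAAT and 2 GC boxes, Col16a1 1 of each, Cx3cr1 1 CCAAT box, Bach1 3 GC boxes and Col15a1 none of these letters. Of 283 named partners of head-to-head loci, 228 had a RefSeq window (289 windows). Their median number of CG dinucleotides was 17 and their median GC content 62.4%, beside 6 and 52.4% over all 32851 RefSeq windows. A GC box was found in 59.9% of them (32.7% of all windows), a CCAAT box in 29.4% (33.8%) and a TATA box in 6.57% (12.4%). Partners of tail-to-tail loci had a GC box in 57.8% of 128 windows (13 CG dinucleotides, 59.6% GC) and partners of loci inside them in 45.3% of 75 windows (13 and 56.8%), so these features were not particular to head-to-head partners. These counts are descriptions of letters in a window and were not tested. Partners of antisense loci were also better expressed than annotated loci at large. Of the 591 partners 579 had a mean of at least 10 normalised reads, at a median level of 4692. Of the 26099 annotated loci 15278 did, at a median of 1774. Partners and all windows were thus not compared at like levels of expression.

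Of the 665 antisense loci, 348 lie on the plus and 317 on the minus strand, over 20 chromosomes. Most have few exons: 69 have 1 exon, 372 have 2 and 224 have more, and the median locus has 2554 exon bases. A partner was found for 607 of them, 25 with more than 1 candidate, and the 607 share 591 partners, since 15 partners face several antisense loci (3 at most). The other 58 share no exon base with an annotated locus in the final annotation and lie in or across the span of one on the opposite strand. Head-to-head pairs were most frequent (313), followed by tail-to-tail pairs (149), loci inside the partner (135) and loci that span it (10). The overlap had a median of 1002 exon bases (quartiles 100 and 2856), with 386 in head-to-head, 1898 in tail-to-tail and 2380 in inside pairs. Overlaps within 5 bases of 100, the length of a sequencing read, were found in 69 loci.

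Where an antisense locus and its partner share exon bases, the deposited values could not show a signal. Of 347 loci in the whole table with no exon base of their own, all had 0 reads in all 8 libraries, and 173 of these are antisense loci. Another 28 antisense loci with at most 174 bases of their own were also at 0 throughout. Reads from bases that 2 loci share were given to neither in these cases, so each value below is taken to come from the part of the antisense locus that lies outside its partner's exons. As a result 201 antisense loci had no read, 167 had a mean under 10 and 297 were tested, in which a median of 96.8% of the exon bases were unshared, against 29.1% over all 665. Of loci inside their partner 23 of 135 could be tested, of head-to-head loci 162 of 313, of tail-to-tail loci 51 of 149, of spanning loci 6 of 10 and of loci without exon overlap 55 of 58. The plot of level against unshared bases shows this limit. Strand-specific library preparation is neither stated nor denied in the labels, and the 69 loci of 1 exon have no splice junction to show it. Counting by strand would have kept the reads of opposite loci apart, so the deposited counts appear to have ignored strand. The value of an antisense locus can then hold reads from its partner's strand, also at loci of several exons. Of the 297 tested loci, 61 have at least 50% of their exon bases within spans of opposite annotated loci. Just under the minimum mean of 10 lay 5 loci with means from 9, and just above it 4 loci with means up to 11.

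**Figure D1:**
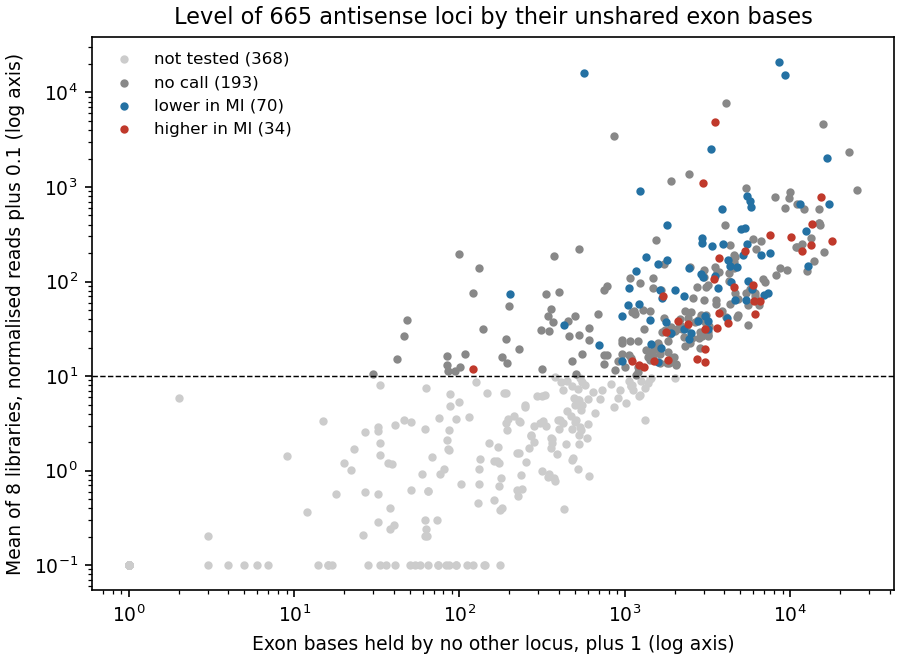
Mean signal over the 8 libraries (normalised reads plus 0.1, log axis) of each of the 665 antisense loci against its exon bases that no other locus holds (plus 1, log axis); each point is 1 locus, coloured by its call, and the dashed line is the minimum mean of 10 for testing. The 173 loci with no unshared base sit together at the lower left with no read, and the 70 lower and 34 higher loci lie at the right, most with over 1000 unshared bases.

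Antisense loci were mostly faint and a few carried most of the signal. Among the 464 with any read the median mean was 22.9 normalised reads, 104 reached 100 and 13 reached 1000. The locus of highest mean, which is not named here, held 17.6% of all signal of antisense loci, the top 3 held 43.9%, the top 10 67.1% and the top 50 86.1%. Per library, 332 to 349 antisense loci had over 3 reads in Sham and 358 to 385 in the deeper MI libraries. Per kilobase of unshared exon, the antisense locus lay below its partner in 221 of the 237 pairs of which both were tested, in Sham hearts, and above it in 16. The partner's Sham level per kilobase was a median of 25.1 times that of the antisense locus (quartiles 5.55 and 88.6).

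XLOC_007419 (chr13:12248458-12279185, mm9) runs tail-to-tail with Mtr, the gene of methionine synthase, and was among the 3 most abundant antisense loci. It held 17653, 19419, 24356 and 18591 normalised reads in Sham replicates 1 to 4 and 8504, 14813, 11254 and 8607 in MI replicates 1 to 4 (means 20005 ± 2989 and 10795 ± 2966, SD, n = 4). All MI libraries lay below all Sham libraries, a fall of 1.85-fold (log2 difference -0.92 ± 0.17, standard error, limma adjusted p = 0.00176). Mtr itself fell by a like amount (log2 -0.78 ± 0.15, adjusted p = 0.0018), and the ratio of both did not pass the test (log2 -0.14 ± 0.11, adjusted p = 0.359). Here and below log2 differences are MI minus Sham on the log2(value + 1) scale, and lists of 4 values run from replicate 1 to replicate 4.

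XLOC_006923 (chr12:103206337-103214305) matches Ndufb1-ps and faces Cpsf2, a subunit of the mRNA cleavage and polyadenylation complex, head-to-head. Its values were 16616, 15581, 23977 and 17925 in Sham and 12196, 13257, 14619 and 13652 in MI, a fall of 1.38-fold with no overlap of the groups (log2 -0.45 ± 0.12, adjusted p = 0.0146). The call was lost with each library scaled to its total (log2 -0.14, adjusted p = 0.254), also without the mitochondrial genome (0.0674). Cpsf2 did not pass the test (log2 -0.12 ± 0.07, adjusted p = 0.197; higher with total scaling, 0.0376), nor did the ratio of the pair (adjusted p = 0.0712). With 568 unshared bases this locus was far denser per kilobase in Sham (32614 normalised reads) than the unshared part of Cpsf2 (741), and is 1 of the 16 above their partner. XLOC_007836, tail-to-tail with Tnpo1, the gene of the nuclear import receptor transportin-1, read 4437, 4558, 4541 and 4151 in Sham and 4966, 4899, 5779 and 5282 in MI. The MI libraries lay just above the Sham libraries (log2 0.24 ± 0.07, adjusted p = 0.0224), and the call was lost without MI replicate 3 (adjusted p = 0.0726), MI replicate 4 (0.0551) or Sham replicate 4 (0.0655). Tnpo1 did not pass (log2 -0.17 ± 0.13). Its ratio to the antisense locus missed the threshold (adjusted p = 0.0502) and passed without MI replicate 2 (0.0199) or Sham replicate 3 (0.0280). XLOC_007699, head-to-head with a locus known by its UCSC identifier uc007qtf.1, gave 3402 ± 676 in Sham and 3585 ± 506 in MI and did not pass (adjusted p = 0.668; 0.0187 with total scaling).

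Under the deposited scaling more antisense loci were lower than higher in MI. With libraries scaled to their total more were higher, as among all loci (8569 higher and 1493 lower). Of the 297 tested, 34 were higher in MI (11.4%) and 70 lower (23.6%), where 20.8% and 20.1% of all 19186 loci tested were higher and lower. The groups did not overlap in 101 of the 297 (34.0%), beside 39.6% of all loci, and 40.9% of all loci were called in either direction. A called change of at least 2-fold upward was seen in 18 of the 297 antisense loci and downward in 26. Over all loci tested the shares were 9.04% upward and 3.77% downward. Of the 3611 intergenic loci 233 rose and 407 fell by this measure, and of the 15278 annotated loci 1484 and 290. More strong falls than strong rises were thus not particular to antisense loci. The median log2 difference was -0.22 over the antisense loci, -0.02 over all loci, -0.0028 over the 15278 annotated and -0.12 over the 3611 intergenic loci tested, of which 337 were higher and 582 lower. Among antisense loci the median was -0.24 in head-to-head pairs (18 higher, 35 lower), -0.030 in tail-to-tail pairs (9 and 12), -0.30 inside partners (0 and 3), -0.15 in spanning loci (1 and 2) and -0.30 in loci without exon overlap (6 and 18). The histogram of log2 differences shows the antisense loci shifted to the left of the annotated loci. Among tested loci the median level was 56.4 normalised reads in antisense, 868 in all, 1774 in annotated and 24.1 in intergenic loci. The shares called and the log2 differences are thus not compared at like levels.

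**Figure D2:**
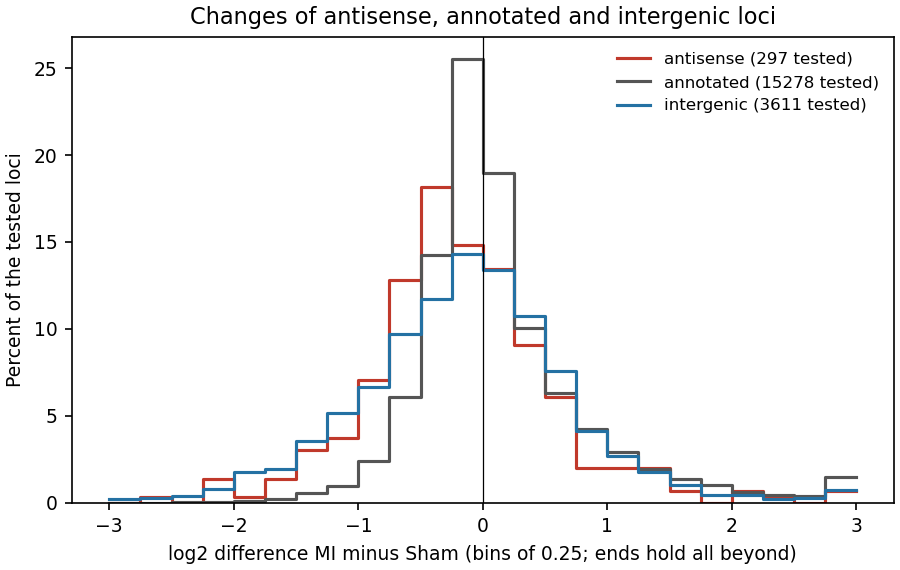
Percent of tested loci (vertical axis) by log2 difference MI minus Sham under the deposited scaling (horizontal axis, bins of 0.25, end bins holding all beyond) for 297 antisense, 15278 annotated and 3611 intergenic loci. The antisense line peaks below 0, with a median of -0.22, and the annotated line peaks in the 2 bins next to 0.

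The split between higher and lower rested on the scaling. With each library scaled to its total, 53 antisense loci were higher and 30 lower. Of all loci 8569 were then higher and 1493 lower, and their median log2 difference moved from -0.02 to 0.29. With the total taken without the mitochondrial genome the counts were 42 and 40, beside 6389 and 2142 of all loci, at a median of 0.17 for all loci. Relative to the median of all loci, the median of the antisense loci was lower under the deposited scaling and under these alternatives, where it was 0.082 and -0.032. Leaving out 1 library gave 21 to 31 higher and 51 to 76 lower antisense loci, with 21 higher without MI replicate 3 and 22 without MI replicate 4. Over all loci the same fits gave 3324 to 3976 higher and 3193 to 3897 lower. Without MI replicate 1, which lacked the rise of atrial markers, 23 antisense loci were higher and 57 lower (3443 and 3193 of all loci). The part of the atrial markers in these counts was not tested. Among the named loci, total scaling ended the call of 8 lower loci, given with each, and turned the sign of Tada2b, while 6 loci that did not pass were called higher with it.

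Antisense loci and their partners were then compared pair by pair. Of 237 pairs with both loci tested, both were higher in 18, both lower in 28, and they were called in opposite directions in 3. Only the antisense locus was called in 30 pairs, only the partner in 64 and neither in 94. The partners leaned lower themselves. Of the 236 tested, 18.2% were higher and 29.7% lower, where 20.8% and 20.1% of all loci were. No counts of joint calls are given for pairs of 2 annotated loci. The log2 differences had the same sign in 71.3% of the pairs (Pearson r 0.61, Spearman rho 0.55, across pairs that share the same 8 libraries), beside 57.6% and r 0.21 in 2049 overlapping pairs of 2 annotated loci. These sets of pairs were not matched by arrangement or level. Over the antisense pairs r was 0.50 without MI replicate 1 and 0.59 to 0.62 without any other library. By arrangement, r was 0.75 over 159 head-to-head pairs, 0.46 over 49 tail-to-tail pairs and 0.61 over 23 inside pairs. By rank the inside pairs came first, with rho 0.59 head-to-head, 0.38 tail-to-tail and 0.72 inside. The sign was the same in 74.2% of head-to-head, 55.1% of tail-to-tail and 82.6% of inside pairs. These values are descriptions. As counting appears to have ignored strand, an antisense value can hold reads of its partner, also for loci inside it. With at least 50% of the exon bases in spans of opposite annotated loci, 76.4% of 55 pairs had the same sign (r 0.57). With under 50% it was 69.8% of 182 pairs (r 0.62). The part of partner reads in these values was not tested. The count of pairs lower together moved to 16 without MI replicate 4, 17 without MI replicate 3, 17 without Sham replicate 2 and 15 without Sham replicate 4. Without any 1 library, 12 to 14 pairs were higher together. The balance turned with scaling: 40 pairs were higher and 10 lower together with total scaling. With the total taken without the mitochondrial genome 27 were higher and 11 lower together. Under each of these scalings 3 pairs were in opposite directions, but only the Rgs1 pair was also among the 3 under the deposited scaling. The scatter of pairs shows the spread around the line of equal change.

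**Figure D3:**
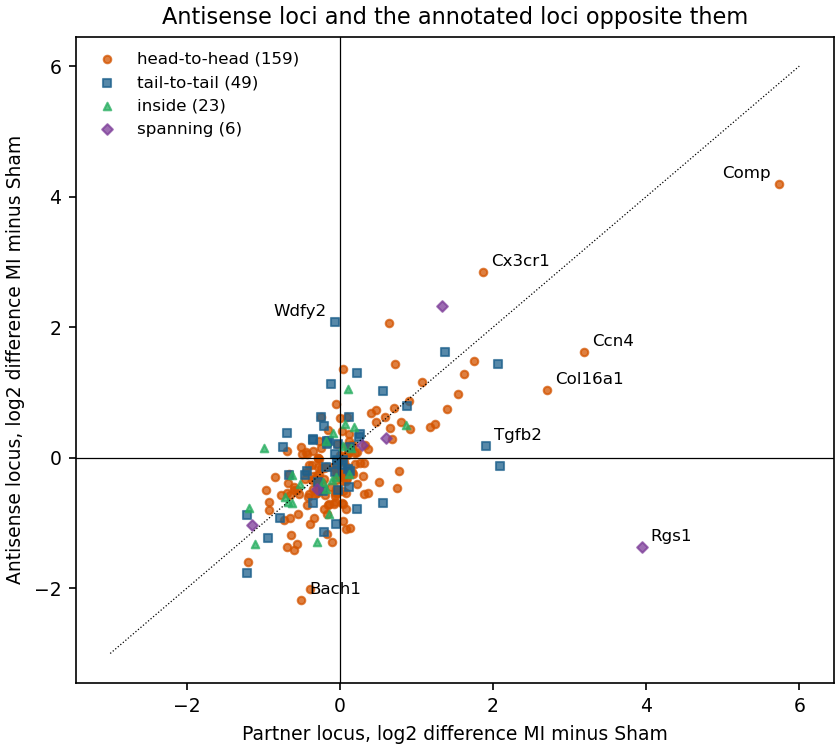
Log2 difference MI minus Sham of each antisense locus (vertical axis) against that of its partner (horizontal axis) for the 237 pairs with both loci tested, with the arrangement of the pair given by colour and shape. The dotted line marks equal change; Comp is at the upper right (4.19 and 5.73) and Rgs1 at the lower right (-1.37 and 3.94).

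The ratio of the antisense locus to its partner tests whether both changed unequally. Over all 2329 overlapping pairs of the annotation 37.4% of ratios were called, and over the 237 antisense pairs 16 were higher and 36 lower in MI. A lower ratio means that the antisense locus fell further than its partner or rose less. Among head-to-head pairs 26 ratios were lower and 7 higher, and among tail-to-tail pairs 7 were lower and 8 higher; the difference between the arrangements was not tested. Since it compares 2 loci of the same library, the ratio hardly moved with scaling (15 to 16 higher and 36 lower under each scaling tried).

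The 2 largest rises lay opposite a gene of the extracellular matrix and a receptor gene of immune cells. These loci, XLOC_031180 and XLOC_032635, had 2 and 9 reads over all Sham libraries. They reached the minimum mean of 10 only through their MI values, as did XLOC_010961 and XLOC_002944 below. Loci so low in Sham could be tested only where MI was high, so these rises are descriptions. The largest rises were also chosen among loci whose groups do not overlap. Of 4 tested antisense loci whose partner is in a list of matrix and fibroblast genes, 3 were higher and none lower, where 20.8% and 20.1% of all loci were, and all 3 partners rose too. The 7 of 7 fibroblast markers that rose (summed signal 107285 to 161249 in Sham and 588596 to 911837 in MI) moved with this group, and their part in the result was not tested. Values of 9 pairs are plotted by library.

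**Figure D4:**
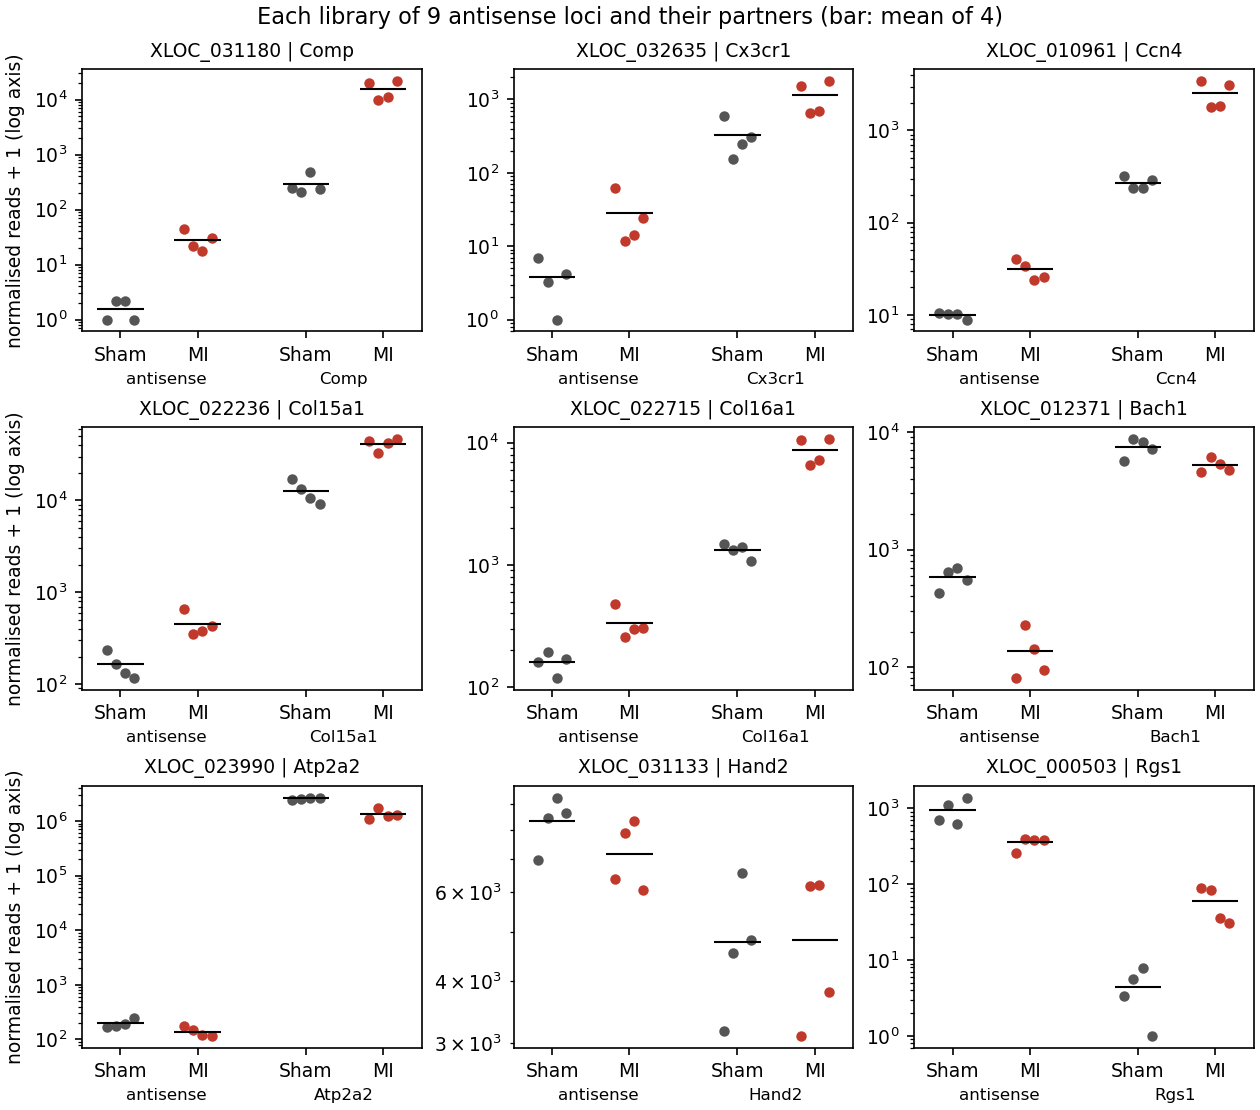
Normalised reads plus 1 (log axis, a scale of its own in each panel) in each Sham (grey) and MI (red) library for 9 antisense loci and their partners; each point is 1 library and each bar the mean of 4. MI points lie above Sham points at both loci for Comp, Cx3cr1, Ccn4, Col15a1 and Col16a1, below them at the Bach1 and Rgs1 antisense loci, and among them at Hand2.

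Comp encodes cartilage oligomeric matrix protein, a glycoprotein of the matrix, and its head-to-head antisense locus XLOC_031180 (chr8:72892481-72897532, sharing 76 exon bases) showed the largest rise. It read 0, 1.14, 1.14 and 0 in Sham and 43.1, 20.6, 16.5 and 29.7 in MI, that is 2 against 144 reads in all. All MI libraries lay above all Sham libraries, and the ratio of the pooled reads was 45.7 (95% exact binomial interval 12.4 to 381, counting error only; log2 4.19 ± 0.46, adjusted p = 7.25e-05). Comp itself went from 292 ± 127 to 15589.6 ± 6018 (log2 5.73 ± 0.31, adjusted p = 1.28e-06), a rise of 53.4-fold that lies within the interval of the antisense locus. The log2 ratio of the pair (-1.54 ± 0.34, adjusted p = 0.00577) sets Comp against a Sham level of 2 reads, where the added 1 compresses the rise of the antisense locus, so unequal change is not shown for this pair.

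Col15a1 encodes a collagen of basement membranes. Its antisense locus XLOC_022236 (chr4:47211719-47221369) starts head-to-head with it and read 236, 166, 132 and 117 in Sham and 663, 350.0, 377 and 424 in MI. The groups did not overlap, the rise was 2.79-fold (log2 1.48 ± 0.25, adjusted p = 0.00101), and Col15a1 rose from 12516 ± 3496 to 41411 ± 5892 (log2 1.76 ± 0.18). The ratio did not pass (log2 -0.28 ± 0.15, adjusted p = 0.189) and did so without MI replicate 1 (log2 -0.43, adjusted p = 0.0134).

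Col16a1 encodes a collagen that sits on the surface of fibrils, and Gm12963 (XLOC_022715, chr4:129700030-129725224) is the antisense gene whose junction is printed above. Its values were 159, 194, 118 and 169 in Sham and 475, 254, 298 and 302 in MI, a rise of 2.08-fold with all MI libraries above all Sham libraries (log2 1.03 ± 0.21, adjusted p = 0.00317). Col16a1 rose more, from 1317 ± 175 to 8723 ± 2148 (log2 2.70 ± 0.17), and the ratio fell (log2 -1.67 ± 0.22, adjusted p = 0.000433). The fourth tested locus of the list, XLOC_018042 opposite the intermediate filament gene Vim, read 14.3, 18.2, 15.9 and 4.73 in Sham and 21.2, 20.6, 22.2 and 19.2 in MI. The groups did not overlap but it did not pass (log2 0.74 ± 0.39, adjusted p = 0.147; 0.0473 with total scaling), beside a log2 difference of 1.40 ± 0.15 for Vim. The ratio of this pair missed the threshold (log2 -0.65, adjusted p = 0.0922) and was lower without Sham replicate 4 (log2 -0.93, adjusted p = 0.0081).

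Ccn4, a matricellular protein gene outside the list, had an antisense locus head-to-head (XLOC_010961, chr15:66712291-66723007) with 9.55, 9.11, 9.09 and 7.88 in Sham and 39.8, 32.9, 23.1 and 24.4 in MI. No MI value fell among the Sham values, and pooled reads rose 3.42-fold (95% interval 2.29 to 5.27; log2 1.62 ± 0.27, adjusted p = 0.00102). Ccn4 rose further (log2 3.19 ± 0.21, from 270.5 ± 41.9 to 2552 ± 839), with a lower ratio (log2 -1.57 ± 0.28, adjusted p = 0.00192).

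Cx3cr1 encodes the fractalkine receptor of monocytes and macrophages, and macrophage markers rose in 3 of 3 in the same libraries, a part in the result that was not tested. Gm33858 (XLOC_032635, chr9:119977355-119980173), head-to-head with it, read 5.97, 2.28, 0 and 3.15 in Sham and 61.0, 10.7, 13.2 and 23.6 in MI, 9 against 148 reads in all. MI replicate 1 was the highest and the groups did not overlap (log2 2.84 ± 0.67, adjusted p = 0.0066, ratio of pooled reads 10.4, 95% interval 5.36 to 23.3). Cx3cr1 rose as well (log2 1.86 ± 0.42, adjusted p = 0.00538), and the ratio did not pass (adjusted p = 0.167). The other tested locus of the immune list, XLOC_004637 opposite Socs3, an inhibitor of cytokine signalling, had MI values (15.9, 16.5, 16.5 and 15.7) above Sham values (10.7, 10.2, 9.09 and 14.2) but did not pass (log2 0.52 ± 0.27, adjusted p = 0.143; 0.0271 with total scaling). Socs3 rose (log2 1.24 ± 0.14), and the ratio missed the threshold (adjusted p = 0.061) and passed without Sham replicate 3 (0.0302).

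A further 3 rises came with a rise of the partner. XLOC_022666, which spans 4933407E24Rik and shares 1 exon base with it, read 26.3, 20.5, 15.9 and 14.2 in Sham and 179.6, 60.1, 88.9 and 93.4 in MI, with no overlap (log2 2.32 ± 0.33, adjusted p = 0.000382; partner 1.33 ± 0.36). Its ratio did not pass (adjusted p = 0.0834) and did without Sham replicate 4 (0.0495). XLOC_016048, tail-to-tail with uc008gcb.1, read 14.3, 20.5, 20.5 and 12.6 in Sham and 77.5, 44.5, 34.6 and 65.4 in MI and did not overlap either (log2 1.61 ± 0.31, adjusted p = 0.00194; partner 1.37 ± 0.24). XLOC_012015, tail-to-tail with Kcnj6, a potassium channel gene, did overlap: it read 117, 161, 556 and 149.8 in Sham and 420.2, 730.5, 362 and 762 in MI, with Sham replicate 3 above MI replicates 1 and 3. Its call (log2 1.43 ± 0.44, adjusted p = 0.0241) was lost without MI replicate 2 (adjusted p = 0.0553), MI replicate 4 (0.0659), Sham replicate 1 (0.0617), Sham replicate 2 (0.0594) or Sham replicate 4 (0.0618), and with all libraries in edgeR (0.0612) and DESeq2 (0.0736).

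In 2 of the largest rises the antisense locus rose more than its partner. XLOC_009850, tail-to-tail with Wdfy2, a gene of a WD-repeat and FYVE-domain protein of endosomes, read 13.1, 12.5, 23.9 and 6.31 in Sham and 45.1, 72.5, 61.8 and 50.6 in MI. The groups were apart and the rise was 4.12-fold (log2 2.08 ± 0.36, adjusted p = 0.00112), while Wdfy2 did not pass (log2 -0.066 ± 0.19, adjusted p = 0.813) and the ratio rose (log2 2.14 ± 0.48, adjusted p = 0.0066). XLOC_002944, head-to-head with Bcr, the gene of a GTPase regulator, read 4.77, 4.56, 1.14 and 7.88 in Sham and 15.9, 17.3, 28.0 and 20.1 in MI, 14 against 102 reads. It rose with no overlap (log2 2.07 ± 0.45, adjusted p = 0.00409), more than Bcr (log2 0.63 ± 0.08; ratio 1.43 ± 0.39, adjusted p = 0.0167).

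Loci opposite genes of muscle contraction and energy supply fell or did not pass, and with total scaling none of the falls passed. Of 11 partners in a list of contraction and calcium genes, the antisense loci of 6 were tested, of which 3 were lower and none higher (median log2 difference -0.39). Of 3 tested in the energy metabolism list 2 were lower and none higher (median -0.61). Of all loci tested 20.1% were lower, and with so few loci these counts are descriptions. Cardiomyocyte markers fell in 5 of 8 in the same libraries (summed signal 7589911 to 8327961 in Sham and 4585392 to 5959200 in MI), and their part in the result was not tested.

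Atp2a2 encodes the calcium pump of the sarcoplasmic reticulum. Its head-to-head antisense locus XLOC_023990 (chr5:122951805-122957161) read 169.5, 177, 194 and 241 in Sham and 176, 145, 119 and 115 in MI, and MI replicate 1 lay within the Sham range. The fall (log2 -0.50 ± 0.18, adjusted p = 0.0473) was lost without MI replicate 2 (adjusted p = 0.0596), 3 (0.118) or 4 (0.125) and without Sham replicate 2 (0.0619), 3 (0.0848) or 4 (0.125). With all libraries it was also lost under TMM scaling (0.0595), edgeR (0.0864), no filter (0.0675), a replicate block (0.0742), total scaling (0.443) and the total without the mitochondrial genome (0.229). Atp2a2, among the most abundant RNAs of the heart, fell from 2594632 ± 127312 to 1343825 ± 253218 (log2 -0.97 ± 0.16, adjusted p = 0.000838).

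Myom1 encodes a protein of the sarcomere's M-band, and its antisense locus XLOC_014109 (chr17:71359788-71368995) read 276, 269, 305 and 249 in Sham and 178, 213, 185 and 210.3 in MI. The groups did not overlap, and the locus fell 1.40-fold (log2 -0.48 ± 0.13, adjusted p = 0.0114; 0.243 with total scaling and 0.0723 with the total without the mitochondrial genome) while Myom1 did not pass (log2 -0.048 ± 0.08, adjusted p = 0.685) and was higher with total scaling (0.00579). The ratio fell too (log2 -0.43 ± 0.10, adjusted p = 0.00677). Gm3510 (XLOC_024246, chr5:15429612-15440700), head-to-head with Cacna2d1, a subunit gene of voltage-gated calcium channels, read 90.7, 142, 70.5 and 101 in Sham and 47.1, 69.998, 34.6 and 47.1 in MI. Its highest MI value lay just under its lowest Sham value, and it fell 2.03-fold (log2 -1.01 ± 0.27, adjusted p = 0.0122; 0.0613 with total scaling). Cacna2d1 fell less (log2 -0.39 ± 0.11, adjusted p = 0.0202), a call lost without MI replicate 1 (adjusted p = 0.0551), Sham replicate 2 (0.0520) or Sham replicate 4 (0.0557) or with total scaling (0.555; 0.141 without the mitochondrial genome). The ratio missed the threshold (adjusted p = 0.0618) and passed without MI replicate 2 (0.0340) or Sham replicate 3 (0.0397). XLOC_032322, opposite the tropomyosin gene Tpm1, did not pass (means 146 ± 21.4 and 122 ± 4.18, adjusted p = 0.225), nor did Tpm1 (adjusted p = 0.0885).

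Fabp3 encodes the fatty acid binding protein of heart muscle. The antisense locus XLOC_022720 (chr4:129957729-129986116) read 41.8, 55.8, 51.2 and 45.7 in Sham and 31.2, 33.8, 25.5 and 25.3 in MI, apart from each other, and fell 1.68-fold (log2 -0.73 ± 0.21, adjusted p = 0.018). This call was lost without MI replicate 4 (adjusted p = 0.0534) or Sham replicate 2 (0.0528), with total scaling (0.126) and with the total without the mitochondrial genome (0.0649). Fabp3 fell in parallel (log2 -0.43 ± 0.12, adjusted p = 0.0171; 0.239 and 0.0623 under these scalings). XLOC_017540, inside Idh3b, a subunit gene of the mitochondrial isocitrate dehydrogenase, read 174, 295, 233 and 213 in Sham and 167, 198, 130.1 and 109 in MI, which overlap. Its call (log2 -0.61 ± 0.22, adjusted p = 0.0456) was lost without MI replicate 1 (0.0594), 3 (0.106) or 4 (0.123) and without Sham replicate 2 (0.124), 3 (0.0894) or 4 (0.0702). With all libraries it was lost under TMM scaling (0.0544), edgeR (0.0708), no filter (0.0594), thinned reads (0.0662), total scaling (0.308) and the total without the mitochondrial genome (0.170). Idh3b fell (log2 -0.72 ± 0.10). XLOC_022825, opposite the succinate dehydrogenase subunit gene Sdhb, did not pass (means 13.7 ± 5.89 and 9.44 ± 0.556, adjusted p = 0.433), while Sdhb fell (log2 -0.68 ± 0.10, adjusted p = 0.000525).

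Of 6 tested loci opposite listed transcription factor genes, 2 were lower and none higher, where 20.1% and 20.8% of all loci were, so with so few loci this is a description. Hand2os1 (XLOC_031133, chr8:59782978-59799866) was the best expressed of them and read 6957, 8445, 9269 and 8617 in Sham and 6369, 7893, 8321 and 6077 in MI. The groups overlap, and the change did not pass (log2 -0.22 ± 0.12, adjusted p = 0.167). Hand2, a transcription factor of heart development, read 3174, 4549.5, 6553 and 4828 in Sham and 3106, 6178, 6203 and 3800.2 in MI, with a log2 difference of -0.0036 ± 0.26 (adjusted p = 0.993). Per kilobase of unshared exon in Sham, Hand2os1 (2027 normalised reads) and Hand2 (2223) were at like levels, where most antisense loci lay far below their partner. Irx4 encodes a ventricular homeobox factor, and XLOC_008329, which spans it, read 251, 208, 224 and 205 in Sham and 179, 142, 153 and 158 in MI. This locus fell with no overlap (log2 -0.49 ± 0.13, adjusted p = 0.0146), and the call was lost with total scaling (log2 -0.18, adjusted p = 0.352) and with the total without the mitochondrial genome (0.137). Irx4 missed the threshold (log2 -0.30 ± 0.12, adjusted p = 0.0634) and passed without MI replicate 1 (0.0485) or Sham replicate 2 (0.0350).

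XLOC_012884, head-to-head with the cardiac homeobox gene Nkx2-5, overlapped between groups (means 276 ± 99.9 and 304 ± 95.9) and did not pass (adjusted p = 0.689). Nkx2-5 fell (log2 -0.51 ± 0.12, adjusted p = 0.0056; 0.189 with total scaling), and the ratio missed the threshold (log2 0.68, adjusted p = 0.0602) and passed without MI replicate 2 (0.0264). XLOC_000001, opposite the endothelial factor gene Sox17, did not pass (means 84.3 ± 10.4 and 67.8 ± 21.5, adjusted p = 0.245), nor did Sox17 (adjusted p = 0.836). The other called locus, XLOC_002061 head-to-head with the forkhead factor gene Foxo3, is outside the rule for named loci and fell by 1.36 on the log2 scale (adjusted p = 0.00482) beside -0.70 for Foxo3.

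Pairs called in opposite directions numbered 3. Rgs1 encodes a regulator of G-protein signalling of leukocytes and is a short gene within the span of XLOC_000503 (chr1:145924718-146128244), which has 17 transcripts and shares 115 exon bases with it. The antisense locus read 696, 1109, 624 and 1391 in Sham and 259.8, 395, 384 and 377 in MI and fell 2.70-fold, with no overlap (log2 -1.37 ± 0.25, adjusted p = 0.00144). Rgs1 read 2.39, 4.56, 6.82 and 0 in Sham and 89.5, 82.4, 34.6 and 29.7 in MI and rose (log2 3.94 ± 0.63, adjusted p = 0.000713). The ratio fell most of all antisense pairs tested (log2 -5.31 ± 0.81, adjusted p = 0.000839), and without Sham replicate 4, where Rgs1 had no read, it was -4.51 and the change of Rgs1 3.34. Rgs1 held few reads in Sham, and T and B cell markers rose in 5 of 5, whose part in the rise of Rgs1 was not tested.

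The other 2 opposite pairs rested on single libraries. XLOC_027653, tail-to-tail with Bcam, a laminin receptor gene, read 77.6, 70.6, 54.6 and 83.6 in Sham and 126, 79.9, 114 and 123 in MI, which overlap (log2 0.62 ± 0.21, adjusted p = 0.0356). This call was lost without MI replicate 1 (0.0955), 3 (0.0795) or 4 (0.0950) or Sham replicate 2 (0.0672) or 3 (0.0898), with no filter (0.0573) and with upper-quartile scaling (0.0508), and the fall of Bcam (log2 -0.24 ± 0.07, adjusted p = 0.0217) without MI replicate 1 (0.0513) or Sham replicate 1 (0.0644). XLOC_018634, tail-to-tail with the chromatin gene Bahd1, read 1158, 840.4, 774 and 903 in Sham and 1360.1, 994, 1205 and 1605 in MI, also with overlap (log2 0.48 ± 0.16, adjusted p = 0.0335). Of the fits that leave out 1 library, it passed without MI replicate 2 or Sham replicate 1. Bahd1 (log2 -0.21 ± 0.07, adjusted p = 0.0392) passed without MI replicate 2 or 3. Under both total scalings neither partner was called (log2 0.067 and -0.050 for Bcam, 0.094 and -0.022 for Bahd1). The ratios of both pairs were higher in MI (Bcam 0.86 ± 0.17, adjusted p = 0.00371; Bahd1 0.70 ± 0.19, adjusted p = 0.0167).

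In other pairs 1 locus changed and the other did not pass. Tgfb2 encodes a ligand of the TGF-beta family, and XLOC_000709 (chr1:188410926-188484813) meets it tail-to-tail with 99 shared exon bases. The antisense locus read 3410.3, 5047, 4488 and 4571 in Sham and 4839.9, 5083, 4856 and 4774 in MI, with overlap and no call (log2 0.17 ± 0.11, adjusted p = 0.228), though it was called higher with total scaling (log2 0.48, adjusted p = 0.00648) and with the total without the mitochondrial genome (0.0204). Tgfb2 read 1214, 1028, 971 and 1071 in Sham and 4896, 2574, 4338 and 4683 in MI and rose 3.85-fold (log2 1.91 ± 0.18, adjusted p = 3.35e-05). The ratio therefore fell (log2 -1.73 ± 0.24, adjusted p = 0.000528). XLOC_016413, opposite the receptor kinase gene Grk5, is the second tested locus of the signalling list and has 181 unshared bases. It did not pass (means 11.4 ± 3.17 and 20.6 ± 6.46, adjusted p = 0.0944) and did without MI replicate 4 (log2 1.04, adjusted p = 0.0386) or with total scaling (0.0264), while Grk5 rose (log2 0.87 ± 0.09).

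Bach1 encodes a transcriptional repressor that is released by haem. Its head-to-head antisense locus XLOC_012371 (chr16:87694079-87699296, 98 shared exon bases, 1 transcript) read 426, 645, 701 and 549 in Sham and 80.2, 228, 142 and 92.5 in MI. All MI libraries lay below all Sham libraries, a fall of 4.28-fold (log2 -2.19 ± 0.30, adjusted p = 0.000286). Bach1 fell less, from 7411 ± 1312 to 5192 ± 688 with overlapping groups (log2 -0.50 ± 0.13, adjusted p = 0.0123; 0.228 with total scaling), and the ratio fell (log2 -1.68 ± 0.21, adjusted p = 0.000343). XLOC_014153, head-to-head with uc008drw.1, showed the same pattern: it read 235, 411, 248 and 407 in Sham and 58.3, 119, 79.1 and 63.7 in MI (log2 -2.02 ± 0.27, adjusted p = 0.000233; ratio -1.63 ± 0.35, adjusted p = 0.00542). The smaller fall of uc008drw.1 (log2 -0.39 ± 0.14, adjusted p = 0.041) was lost without MI replicate 1 (0.0881), 2 (0.0822) or 3 (0.111) or Sham replicate 1 (0.0854), 3 (0.105) or 4 (0.0878), under TMM scaling (0.0510) and with total scaling (0.585).

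The largest falls held 4 more loci. XLOC_000591, tail-to-tail with Lrrc52, an auxiliary subunit gene of potassium channels, read 180.2, 356, 235 and 274 in Sham and 64.3, 119, 74.9 and 52.4 in MI with no overlap (log2 -1.76 ± 0.27, adjusted p = 0.000583), and Lrrc52 fell with it (log2 -1.21 ± 0.16). The others share no exon base with an annotated locus. XLOC_028752 (chr7:6415518-6431160) read 31.0, 38.7, 45.5 and 37.8 in Sham and 5.97, 5.76, 5.76 and 3.49 in MI, 124 against 27 reads, the largest fall of all antisense loci (log2 -2.66 ± 0.28, adjusted p = 6.09e-05). XLOC_018789 (chr2:149160580-149413876) went from 63.2 ± 5.85 to 14.0 ± 5.70 (log2 -2.17 ± 0.28, adjusted p = 0.000195), and XLOC_013356 (chr17:67978877-67997147) from 129 ± 8.20 to 38.1 ± 6.50 (log2 -1.74 ± 0.18, adjusted p = 5.64e-05). In each of these loci the groups stood apart, which the choice required. The 6 largest falls, the loci opposite Bach1 and uc008drw.1 among them, were taken from loci whose groups do not overlap.

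Among antisense loci that match a reference gene, 42 were tested, 6 of them higher (14.3%) and 9 lower (21.4%), where 20.8% and 20.1% of all loci were. Gm28651 (XLOC_009034), a long non-coding RNA gene inside 3425401B19Rik, read 809, 939.5, 849 and 873 in Sham and 296, 422, 356 and 353 in MI and fell 2.43-fold with no overlap (log2 -1.29 ± 0.12, adjusted p = 2.98e-05). Its partner fell less (log2 -0.29 ± 0.09, adjusted p = 0.0217), a call lost with total scaling (0.903) and without MI replicate 1 (0.0529) or 4 (0.0567) or Sham replicate 2 (0.0619), and the ratio fell (log2 -0.997 ± 0.09, adjusted p = 6.95e-05). Plet1os (XLOC_032922), whose junction is printed above, read 1072, 999.9, 1254 and 930.2 in Sham and 719.8, 739, 818 and 775 in MI, apart (log2 -0.47 ± 0.11, adjusted p = 0.00494), a call lost with total scaling (log2 -0.17, adjusted p = 0.185). Tada2b (XLOC_024345), a protein-coding gene of a histone acetyltransferase complex that runs tail-to-tail with the mitochondrial co-chaperone gene Grpel1, read 2685, 2723, 2643 and 2911 in Sham and 2158, 2421, 2313 and 2588 in MI. Its small fall (log2 -0.21 ± 0.08, adjusted p = 0.0473) passed with all libraries or without MI replicate 4 and was lost without each of the other 7, with no filter (0.0615) and with thinned reads (0.0800), and with total scaling the difference was 0.096. Grpel1 fell (log2 -0.43 ± 0.09, adjusted p = 0.00434; 0.129 with total scaling). Gm21885 (XLOC_004341), tail-to-tail with the splicing factor gene Luc7l3, did not pass (means 562 ± 38.3 and 647 ± 27.4, adjusted p = 0.105), nor did Luc7l3. With total scaling both were higher (adjusted p = 0.00265 and 0.0159). Their ratio did not pass either (adjusted p = 0.113) and did without Sham replicate 1 (0.0479).

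As a share of all reads, antisense loci held 0.0779 ± 0.00545% in Sham and 0.0766 ± 0.00454% in MI (SD, n = 4 each). The difference of -0.0013 percentage points did not pass a 2-sided exact permutation test over libraries (p = 0.714, where 4 against 4 can reach 0.0286). With the mitochondrial genome left out of the total the shares were 0.112 ± 0.00683% and 0.102 ± 0.00599% (exact permutation p = 0.0857). The first difference was smaller than the SD of either group, while the second, -0.0104 percentage points, was larger than both SDs, with overlapping groups. Of this summed signal 3 loci hold 43.9%.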

How the data were processed

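Per the labels' protocols, RNA was extracted with Trizol and its poly(A) fraction sequenced. The submitters' processing notes name mm9 as build and DESeq, HTSeq 0.5.4p2, Cufflinks 2.0.2 and TopHat2 2.0.5 as tools, with roles and settings not given in the sources used here. The authors deposited 1 normalised signal per locus and library with an annotation of the loci in mm9. All values (100% within 0.000001 reads) were whole multiples of 1 step per library, which gave back the reads.

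The main test was limma 3.58.1 (R 4.3.3) with an intensity trend on log2(signal + 1), 2-sided, over 19186 loci with a mean of at least 10, with Benjamini-Hochberg adjustment over all and a threshold of 0.05. Adjusted p values are from this fit unless another setting or a left-out library is named with them. Those of ratios are from a like fit on 2329 pairs, with the trend on the mean level of both loci. Values after ± are SD (n = 4) for levels and standard errors for log2 differences. Alternatives were other pseudocounts, filters and scalings, and edgeR 4.0.16 and DESeq2 1.42.0 on the reads. Thinned reads, a replicate block and leaving out each library were further alternatives. The main limma fits of loci and of ratios were first tried on simulated data, and the other models were not. Other steps ran in Python 3.11.15 with scipy 1.17.1, pandas 2.3.3 and numpy 2.4.6.

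Loci were named by exon and intron lengths equal to those of a GENCODE M21 gene in chromosome order, which named 19238 of 20506 annotated loci with several exons (93.8%). Decoys with 1 altered length gave 66 names, 0.339% of all names given, and 2 for antisense loci. The partner is the annotated locus on the opposite strand with most shared exon bases, at least 1.

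The loci named are the 6 largest rises and 6 largest falls with groups that do not overlap, the 6 of highest mean, up to 6 pairs called in the same and in opposite directions, up to 4 loci opposite each of 6 lists of heart genes and the 6 most abundant loci that match a reference gene. Loci on chromosome 18 (13, of which 5 were tested) were counted and not named. The antisense loci, lists and rules were chosen with earlier results of these data known. Markers of 9 cell types were checked: smooth muscle rose in 3 of 4, the erythroid marker found fell, all 3 atrial markers rose, and of the neuronal markers Tubb3 rose while Snap25 and Elavl4 were too low to test. The labels do not say how the replicates were taken beyond calling them biological.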

Additional observations from a re-analysis of the deposited data

Results flagged for a closer look

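In 8 of the values named, 1 library stood apart from the other 3 of its group by Dixon's 95% criterion. Chance meets this criterion in about 1 of 20 groups. The loci named by rule number 42, most with a partner and each with a Sham and an MI group. Several such values can thus be met by chance. Of antisense loci, the XLOC_000503 locus opposite Rgs1 was lowest in MI replicate 1 (259.8 normalised reads, the others 377 to 395). The XLOC_012015 locus opposite Kcnj6 was highest in Sham replicate 3 (556, the others 117 to 161). XLOC_028752 was lowest in MI replicate 4 (3.49, the others 5.76 to 5.97), which is a difference of few reads.

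Of partners, Cpsf2 (XLOC_006416) was lowest in MI replicate 1 (3533) and 3425401B19Rik (XLOC_009625) highest in Sham replicate 2 (38283). The locus uc008gcb.1 (XLOC_015622) was highest in Sham replicate 1 (3360.2), as was Grk5 (XLOC_016009, 3785). Comp (XLOC_030503) was highest in Sham replicate 3 (481). No library was the source of more than 2 of these 8 values.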

How the results depend on the processing

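Antisense loci tested numbered 294 to 298 in all fits but those without a filter and on loci with class x transcripts alone. Higher loci numbered 34 (28 to 35 with another pseudocount, no filter, TMM or upper-quartile scaling, robust fit, thinned reads, edgeR or DESeq2) and lower loci 70 (61 to 77). Scaling to the library total gave 53 higher and 30 lower, and the total without the mitochondrial genome, chosen after seeing the data, 42 and 40. Over all loci these scalings gave 8569 and 1493, and 6389 and 2142. On the 160 tested loci with class x transcripts alone, 12 were higher and 37 lower, from fewer loci tested. Leaving out 1 library gave 21 to 31 higher and 51 to 76 lower loci, 12 to 20 higher and 31 to 37 lower ratios, and a change of the share of reads from -0.0038 to 0.00078 percentage points, with the sign turned without Sham replicate 2 (0.00012) and MI replicate 4 (0.00078). Overlaps of at least 100 bases left 124 pairs, with 11 ratios higher and 16 lower in place of 16 and 36. Thinned reads gave 22 ratios higher and 36 lower. With total scaling the differences of Tada2b (XLOC_024345, 0.096), 3425401B19Rik (0.014), Bahd1 (0.094) and Bcam (0.067) changed sign. Over all values of named loci, partners and ratios, 2008 kept direction and side of the threshold, 105 lost the call, 45 gained one and 4 turned.

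Samples of the same replicate number did not deviate together in every pair (r 0.15, 0.27, 0.16 and -0.00092), and Sham replicate 1 correlated best with MI replicate 4 (0.28), so the numbers were not taken as pairs. With a replicate block 31 antisense loci were higher and 71 lower, and 21 ratios higher and 39 lower. Depth limits the faint loci: 3 reads were worth 1.99 to 4.73 normalised reads, and 368 antisense loci were too low to test.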

Other observations

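Genes whose symbol marks them as opposite-strand, antisense or overlapping transcripts, most of them annotated and so outside the 665, were counted in the same fit. Of 151 such loci 71 were tested, 13 higher and 9 lower in MI (20.8% and 20.1% of all loci were), with a median log2 difference of -0.019 over the 71, beside -0.22 over the 297 antisense loci. Dio3os, which shares its promoter region with the thyroid hormone deiodinase gene Dio3, rose from 29.3 to 188 normalised reads (log2 2.66 ± 0.19), with all MI libraries above all Sham libraries. Has2os, opposite the hyaluronan synthase gene Has2, rose from 31.3 to 73.2 (log2 1.21 ± 0.21). Of those that fell, Uckl1os went from 102 to 47.9 (log2 -1.09 ± 0.23), Igf2os from 42.4 to 21.2 (log2 -0.98 ± 0.23) and Atcayos from 3901 to 2232 (log2 -0.82 ± 0.14). The genes named from this list were chosen after their values were seen. Of the 665, 5 carry such a name: Hand2os1 did not pass, Plet1os was lower, and Arhgap27os1, Dhrs13os and Frmd8os were too low to test.

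Some antisense loci outside the rule for named loci are given here, chosen after their values were seen. Gm17501 (XLOC_020214), head-to-head with the matricellular gene Ccn1, rose from 165 ± 33.5 to 369 ± 55.3 (log2 1.17 ± 0.17) as Ccn1 did (log2 1.08 ± 0.16). Gm45494 (XLOC_031928), head-to-head with Yap1, a coactivator gene of the Hippo pathway, fell from 439.7 ± 57.8 to 299.9 ± 20.1 (log2 -0.54 ± 0.12, adjusted p = 0.00528; 0.0935 with total scaling) while Yap1 did not pass (log2 0.08 ± 0.06; called higher with total scaling, 0.39), and the ratio fell (log2 -0.62 ± 0.11, adjusted p = 0.00147). XLOC_004716, head-to-head with Xbp1, a factor gene of the unfolded protein response, rose from 6.88 ± 1.22 to 19.2 ± 2.54 (log2 1.36 ± 0.28, adjusted p = 0.00324) beside no call for Xbp1 (log2 0.044 ± 0.08; called higher with total scaling, 0.35). XLOC_004716 reached the minimum mean of 10 only through its MI values. XLOC_025995, head-to-head with the thin-filament gene Lmod3, fell (log2 -1.18 ± 0.25, adjusted p = 0.0036) with Lmod3 (log2 -0.63 ± 0.09).

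XLOC_006135 (chr12:24101595-24285273, mm9) had reads in 1 library alone. Its 199 exon bases, in 1 transcript of 2 exons, held 384 reads in Sham replicate 2 (437 normalised reads) and 0 in each of the other 7 libraries, which allows up to 3 reads in each. No test bears on a single library, and the locus did not pass in the fit (adjusted p = 0.334).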
